A study of Mus musculus with 9 samples.

Results

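Centriole duplication genes and deuterosome genes were followed through the first days of airway epithelial differentiation in culture. The set was fixed by gene name as 10 of the 56748 genes in the deposited table: Deup1, Cdc20b, Cep63, Cep152, Plk4, Stil, Sass6, Cep135, Cep120 and Ccp110. All 10 were found. They were set side by side as the deuterosome genes Deup1 and Cdc20b (2 genes) and the centriole genes that dividing cells also use (8 genes). The samples were WT primary mouse airway basal stem cells, the progenitors at the base of the tracheal lining. They were grown in air-liquid interface (ALI) culture, on a membrane fed from below and open to air above, and no other genotype or treatment was included. RNA was sequenced from 3 libraries on each of days 1, 3 and 5, which the submitters assign in turn to proliferation, stratification and luminal specification. Whether the replicates of a day are separate cultures or animals is not stated in the labels. The p-values therefore describe the spread among these libraries alone, and that spread may be technical.

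A dividing cell builds a single new centriole beside each parent centriole per cycle. Cep63 and Cep152 form a scaffold on the parent's wall, Cep152 brings in the kinase Plk4, and Plk4 acts with Stil and Sass6 to lay down the cartwheel from which the new centriole grows. A multiciliated airway cell has left the cell cycle and makes many centrioles at once, most of them around deuterosomes, bodies built on Deup1, and each centriole then docks at the cell surface as the basal body of a cilium. The same duplication proteins are used in both settings, whereas Deup1 and Cdc20b are known from the deuterosome route.

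Levels are normalized counts, the deposited log2 values returned to the linear scale, and a change is the difference in log2(normalized count + 1). Tests were made with limma over all 17338 genes that passed a filter on low values, with Benjamini-Hochberg adjustment over all of them. A gene was called at an adjusted p under 0.05. The libraries held 26.5 to 35.1 M reads on day 1, 19.5 to 24.6 M on day 3 and 16.4 to 19.3 M on day 5. Much of the transcriptome moved between days: from day 1 to day 3, 36.1% of the tested genes were called up and 37% down. From day 3 to day 5 these shares were 34.8% and 32.4%, and from day 1 to day 5 they were 36.7% and 37.7%. The median change over all tested genes was 0.00, 0.06 and −0.06 in the 3 comparisons.

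The labelled cell type was checked against its markers. The basal cell list (9 genes, Krt5 and Trp63 among them) had reads for every gene on every day, but its genes did not move together. Between days 1 and 5, 4 were called up and 5 down. Krt5 (means of 108199, 82486 and 38923 on the 3 days) and Trp63 (3811, 1644 and 2798) were among those down, and Krt15 (62675, 302633 and 195601) among those up. The change of Trp63 between days 1 and 5 was −0.44, with overlap between the libraries of the days, and it was called in 12 of 18 alternatives. The leukocyte list (12 genes) summed to 264 to 299 on day 1, 2181 to 2280 on day 3 and 63488 to 81666 on day 5, and its 4 tested genes were all called up from day 1 to day 3. Cd68 carried most of the day 3 sum, with means of 259, 1612 and 163 on the 3 days, and Lyz2 carried 70299 of the day 5 mean. Ptprc had 15, 0 and 1 reads on the 3 days, and Tyrobp and C1qa had none on any day. Fibroblast markers (10 genes) summed to 102 to 304 in every library, most of it from Twist2 (means of 104, 248 and 34.3) and, on day 5, from Dcn (0, 0 and 112), with Col1a1, Col1a2 and Col3a1 at means under 3 on each day. The part of such cells in the results was not tested. Endothelial, smooth muscle and cartilage markers (12 genes) summed to 166 to 634.

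Deup1 (ENSMUSG00000039977), the core scaffold protein of the deuterosome and a paralog of Cep63, had almost no reads on days 1 and 3 and was well detected in each library of day 5. Its normalized count on day 1 was 0, 0 and 0.606 in the 3 libraries, the last being 1 read. On day 3 it was 0 in all 3 libraries, and on day 5 it was 638, 407 and 491. All day 5 libraries were therefore far above all earlier ones, and days 1 and 3 could not be told from each other at this depth.

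The rise of Deup1 from day 3 to day 5 was 8.98 on the log2 scale (SE 0.34, adjusted p = 5.91e-08), and from day 1 to day 5 it was 8.75 (adjusted p = 1.10e-08). Deup1 passed the filter on low values only through its day 5 libraries, so these calls follow in part from that filter. Summed over each day's libraries there were 1, 0 and 1358 reads. Against the floor that 0 reads allow (3 reads over the group), day 5 was at least 446-fold higher than day 3. Against the single read of day 1 the ratio was 2264, with a 95% interval of 406 to 89478 that covers counting error only.

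Cdc20b (ENSMUSG00000078926), a relative of the mitotic activator Cdc20 that is found at deuterosomes and takes part in releasing the finished centrioles, had no read in any library of days 1 and 3. On day 5 its normalized count was 131, 65.8 and 77.5, from 246 reads in all. The day 5 libraries did not overlap those of either earlier day. The rise was 6.47 from either day (SE 0.37; adjusted p = 3.55e-07 against day 3 and 1.04e-07 against day 1), and by the same floor day 5 was at least 80.9-fold above day 3 and at least 137-fold above day 1. These calls too follow in part from the filter, which Cdc20b passed only through day 5. Of the exonic bases of Cdc20b, 10.8% lie under a gene on the other strand, 4930563N14Rik, whose reads cannot be told apart from those of Cdc20b where strand was not used in counting.

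Deup1 and Cdc20b passed the filter on low values only through their day 5 libraries, so their calls follow in part from that filter. In whole-culture RNA, fewer cells of a type and less RNA per cell cannot be told apart. The summed level of the 17 multiciliated cell markers rose in both steps: it was 231 to 250 on day 1, 958 to 1028 on day 3 and 9522 to 11103 on day 5. Cfap43 was the largest part of the day 3 sum, with means of 100, 506 and 659 on the 3 days. Between days 1 and 3, when Deup1 and Cdc20b had at most 1 read, 9 of these 17 markers were called up and none down, and from day 3 to day 5 all 17 were called up. Dnah5 and Dnai1, motor subunits of the ciliary axoneme, were also at 0 reads in every library of days 1 and 3. Like Deup1 and Cdc20b, they passed the filter only through day 5, as did Gmnc, Tekt1, Hydin and Spag6l, among others. Their calls to day 5 therefore follow in part from the filter. The secretory cell list (8 genes) rose as well, from 2287 to 7472 on day 1 to 261562 to 392437 on day 3 and 688182 to 933258 on day 5, with all 8 called up between days 1 and 5. Most of its sum on days 1 and 3 was Cbr2, with means of 4868, 311058 and 311624 on the 3 days. Cyp2f2 had means of 773, 23567 and 294613, whereas Scgb1a1 (8.69, 96.8 and 18744) and Scgb3a2 (0.277, 15.8 and 72296) were low until day 5. The part of cell numbers in the rise of Deup1 and Cdc20b was not tested.

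**Figure D1:**
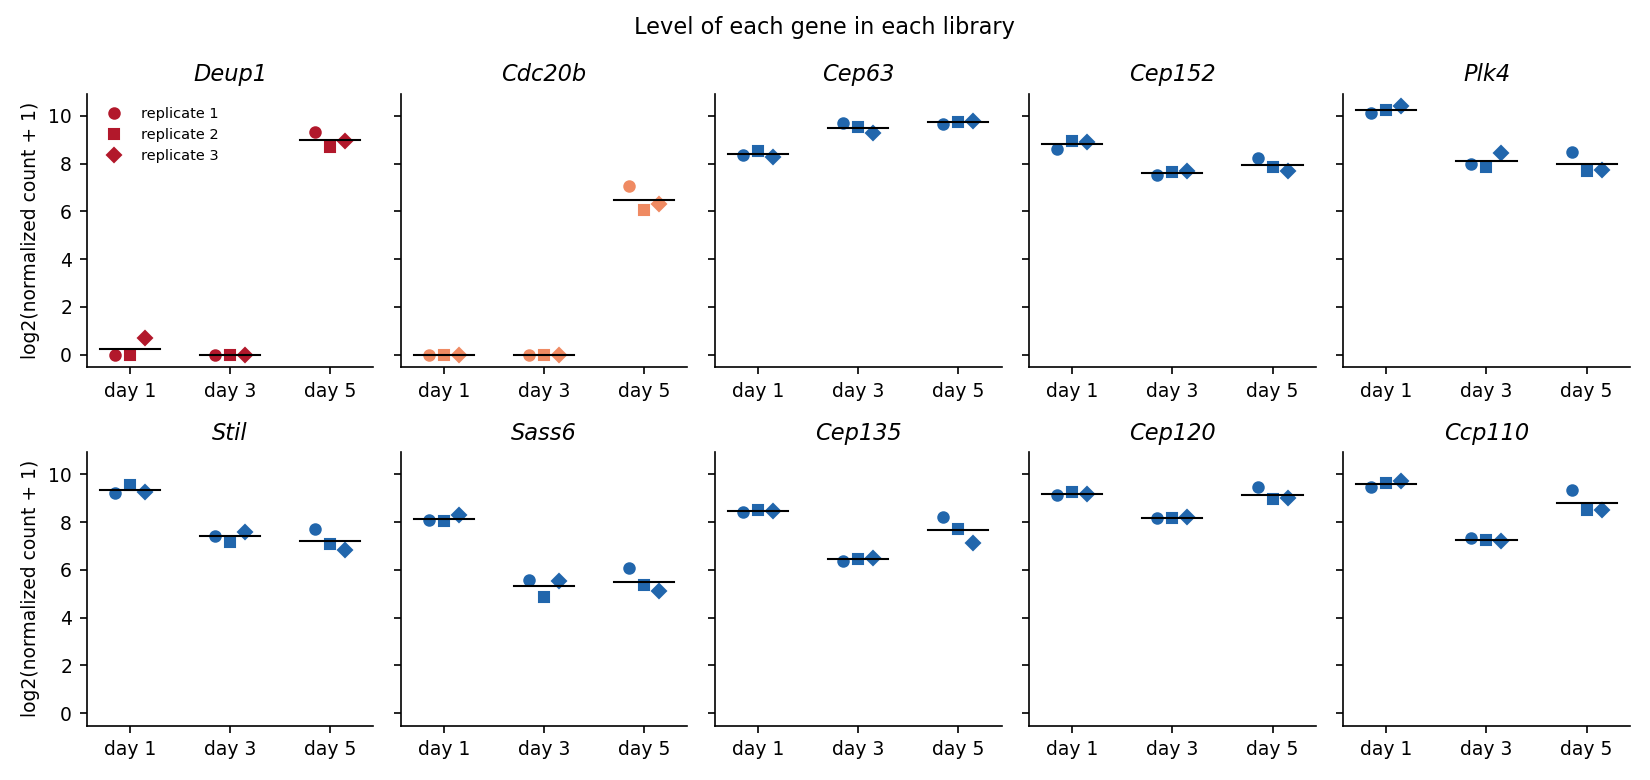
Level of each of the 10 genes in each library, as log2(normalized count + 1) on the vertical axis, by day on the horizontal axis. Each symbol is 1 library (circle, square and diamond for replicates 1, 2 and 3), the bar is the mean of the 3 libraries, red marks Deup1, orange Cdc20b and blue the 8 centriole genes. Deup1 and Cdc20b lie at or near 0 until day 5, whereas each of the 8 centriole genes has its 3 day 1 libraries well above 0.

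The promoter windows of both deuterosome genes are shown because both genes appeared in the same step. They are the RefSeq windows of GRCm38.p6, from 250 bases before the annotated start to 50 after it, read 5′ to 3′ on the gene's strand. The Deup1 window is chr9:15627797-15628096 on the minus strand and the Cdc20b window is chr13:113035129-113035428 on the plus strand. Capitals mark matches to 4 motifs searched on both strands: E2F (GGCGGGA), the cell cycle element CHR (TTTGAA), the RFX factors' X-box (GTTNCC and GGNNAC with 2 free bases between them) and FOX (GTAAACA).
Deup1: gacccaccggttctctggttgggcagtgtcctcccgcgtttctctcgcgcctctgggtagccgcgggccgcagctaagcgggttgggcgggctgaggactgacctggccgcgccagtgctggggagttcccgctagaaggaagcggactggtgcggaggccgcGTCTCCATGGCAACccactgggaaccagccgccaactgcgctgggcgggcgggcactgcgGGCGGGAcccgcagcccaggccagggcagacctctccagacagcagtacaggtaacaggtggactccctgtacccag
Cdc20b: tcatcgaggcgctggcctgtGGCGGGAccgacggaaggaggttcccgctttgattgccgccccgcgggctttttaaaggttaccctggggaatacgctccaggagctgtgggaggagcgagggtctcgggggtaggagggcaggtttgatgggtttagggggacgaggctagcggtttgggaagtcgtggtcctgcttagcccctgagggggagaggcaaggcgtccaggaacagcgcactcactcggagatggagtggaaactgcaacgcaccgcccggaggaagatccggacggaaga

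The Deup1 window held an X-box, read on the strand opposite to the printed one, whose first printed base is at position −87 from the gene start, and an E2F match at −27. The Cdc20b window held an E2F match at −230. An X-box was found in 1.29% of 32851 mouse promoter windows of this length and the E2F letters in 11.3%. Among the other genes, the windows of Cep152 and Cep63 each held an E2F match, and that of Sass6 a CHR match, a motif found in 17.9% of windows. No match to the 4 motifs was found in the windows of Plk4, Stil, Cep135 and Ccp110, nor in a second annotated Deup1 window, and the FOX letters (3.65% of windows) were in none of those searched. No window of Cep120 was searched. A match is a run of letters and does not show that a factor binds there.

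Cdc20b is the host gene of the miR-449 cluster, microRNAs abundant in multiciliated cells, and miR-449 and the related miR-34 family are known to lower Ccp110. The 4 mature -5p forms of these families in the RefSeq table are printed 5′ to 3′ with the seed, bases 2 to 8, in capitals, because they share that seed. The -3p forms in the table have other seeds and are not shown.
mmu-miR-449a-5p: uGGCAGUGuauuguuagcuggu
mmu-miR-449c-5p: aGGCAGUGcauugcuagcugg
mmu-miR-34a-5p: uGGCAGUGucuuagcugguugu
mmu-miR-34b-5p: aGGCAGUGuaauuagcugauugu

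The deposited table lists the hairpin genes of the cluster. Mir449c had 5, 7 and 8 reads in the 3 day 5 libraries, Mir449b had 2, 2 and 2, and Mir449a had 2, 2 and 0. All had 0 reads on days 1 and 3. These are reads of an RNA library over short stretches inside Cdc20b, and mature microRNA was not measured.

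Among the 8 centriole genes, 7 fell from day 1 to day 3 and 1 rose, against 37% and 36.1% of all tested genes, with a median change of −1.98. Cep63, Cep152, Plk4, Stil, Sass6, Cep135, Cep120 and Ccp110 had no overlap between the libraries of day 1 and day 3, as had 77.3% of all tested genes. From day 3 to day 5, 3 of the 8 rose (Cep135, Cep120 and Ccp110) and none fell, with 34.8% of all tested genes called up and 32.4% down and a median change of 0.28. From day 1 to day 5, 1 of the 8 was called up and 6 down, with 36.7% and 37.7% of all tested genes called and a median of −0.84.

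Cep63 (ENSMUSG00000032534), which sits on the parent centriole and recruits Cep152 there, was the only one of the 8 called up from day 1 to day 3. It measured 326, 367 and 307 on day 1, 826, 728 and 624 on day 3, and 796, 858 and 889 on day 5. Every library of days 3 and 5 was above every library of day 1, and days 3 and 5 overlapped. The change to day 3 was 1.12 (SE 0.12, adjusted p = 1.71e-05), or 2.18-fold, and the further change to day 5 was 0.23 (adjusted p = 0.121).

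Its partner Cep152 (ENSMUSG00000068394), the scaffold that binds Plk4 and that Deup1 also recruits, moved the other way. Cep152 measured 384, 489.9 and 473 on day 1, 179.9, 199.5 and 205 on day 3, and 302, 234 and 204 on day 5. The fall to day 3 was −1.19 (SE 0.17, adjusted p = 8.01e-05), all day 3 libraries lying below all day 1 libraries. Days 3 and 5 overlapped (0.32, adjusted p = 0.108; 0.45 and adjusted p = 0.0394 without day 5 replicate 3), and day 5 remained below day 1 (−0.87, adjusted p = 6.91e-04). Per kb of the longest transcript, a choice on which the ratio depends, Cep152 stood at 1.37 ± 0.186 times Cep63 on day 1, 0.278 ± 0.0565 on day 3 and 0.299 ± 0.0785 on day 5 (SD, n = 3).

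Plk4 (ENSMUSG00000025758), the kinase that starts centriole duplication, had the highest level per kb of transcript of the 10 genes on day 1. It measured 1099.9, 1209 and 1358 on day 1, 254, 229 and 346 on day 3, and 354, 205 and 212 on day 5. Day 1 lay above both later days in every library, and days 3 and 5 overlapped. The fall to day 3 was −2.16 (SE 0.22, adjusted p = 9.72e-06), or 4.42-fold, and the change from day 3 to day 5 was −0.13 (adjusted p = 0.619).

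Stil (ENSMUSG00000028718), the Plk4 substrate that brings Sass6 to the new centriole, followed the same course. It measured 595, 739 and 611 on day 1, 171, 142 and 193 on day 3, and 210.1, 133 and 113 on day 5, with day 1 above both later days and the later days overlapping. Stil fell by 1.94 to day 3 (SE 0.22, adjusted p = 2.08e-05) and changed by −0.19 from day 3 to day 5 (adjusted p = 0.467).

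Sass6 (ENSMUSG00000027959), whose oligomers make the hub of the cartwheel, had the deepest fall of the 10 genes and the lowest level per kb of the 8 centriole genes on days 3 and 5. It measured 268, 262 and 317 on day 1, 46.2, 28.1 and 45.4 on day 3, and 66.4, 40.0 and 33.2 on day 5. Day 1 did not overlap either later day. The fall to day 3 was −2.82 (SE 0.29, adjusted p = 9.98e-06), or 7.07-fold, and the change from day 3 to day 5 was 0.19 (adjusted p = 0.576). Its value is uncertain, because 30.9% of its exonic bases, and 96% of the last 500 bases of its longest transcript, lie under genes on the other strand (Trmt13 and Gm42893).

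Plk4, Stil, Sass6 and Cep152 fell in the first step and had no call in the second. With the trend of transcript length and GC content removed from each library's values, all 4 falls to day 3 were still called (Plk4 −1.71, Stil −1.18, Sass6 −2.14, Cep152 −0.73). Under that same setting Plk4 and Stil were also called down from day 3 to day 5 (−0.55, adjusted p = 0.0155, and −0.71, adjusted p = 2.56e-03).

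Cep135, Cep120 and Ccp110, genes of later assembly steps, fell to day 3 and rose again to day 5. Cep135 (ENSMUSG00000036403), which links the cartwheel to the microtubule wall, measured 342, 357 and 355 on day 1, 81.2, 85.7 and 89.8 on day 3, and 294, 208 and 139 on day 5. The 3 days did not overlap, with day 3 the lowest and day 1 the highest. Cep135 fell by 2.03 to day 3 (adjusted p = 2.00e-05), rose by 1.25 to day 5 (SE 0.23, adjusted p = 8.37e-04) and ended 0.78 below day 1 on the log2 scale (change of −0.78, adjusted p = 0.0102).

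Cep120 (ENSMUSG00000048799), which promotes centriole elongation, measured 553, 603 and 579 on day 1, 289.8, 288 and 291 on day 3, and 699, 501 and 513 on day 5. Day 3 was below both other days in every library, while days 1 and 5 overlapped. The fall was −0.99 (SE 0.13, adjusted p = 6.09e-05) and the rise 0.96 (adjusted p = 1.26e-04). Day 5 differed from day 1 by −0.04 (adjusted p = 0.819), where a missed threshold does not show equal levels.

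Ccp110 (ENSMUSG00000033904), the cap of the distal centriole end that must be removed before a cilium can grow, had the largest rise of the 8 centriole genes after day 3. It measured 698, 789.6 and 839 on day 1, 159, 153 and 148 on day 3, and 645, 363 and 361 on day 5. The 3 days did not overlap. It fell by 2.33 to day 3 (SE 0.20, adjusted p = 3.88e-06), or 5.07-fold, and rose by 1.51 to day 5 (SE 0.20, adjusted p = 1.05e-04), or 2.98-fold. Day 5 stood below day 1 by a change of −0.82 (adjusted p = 3.98e-03). The rise of Ccp110 on day 5 came in the same libraries in which Cdc20b and the Mir449 hairpin entries first had reads.

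**Figure D2:**
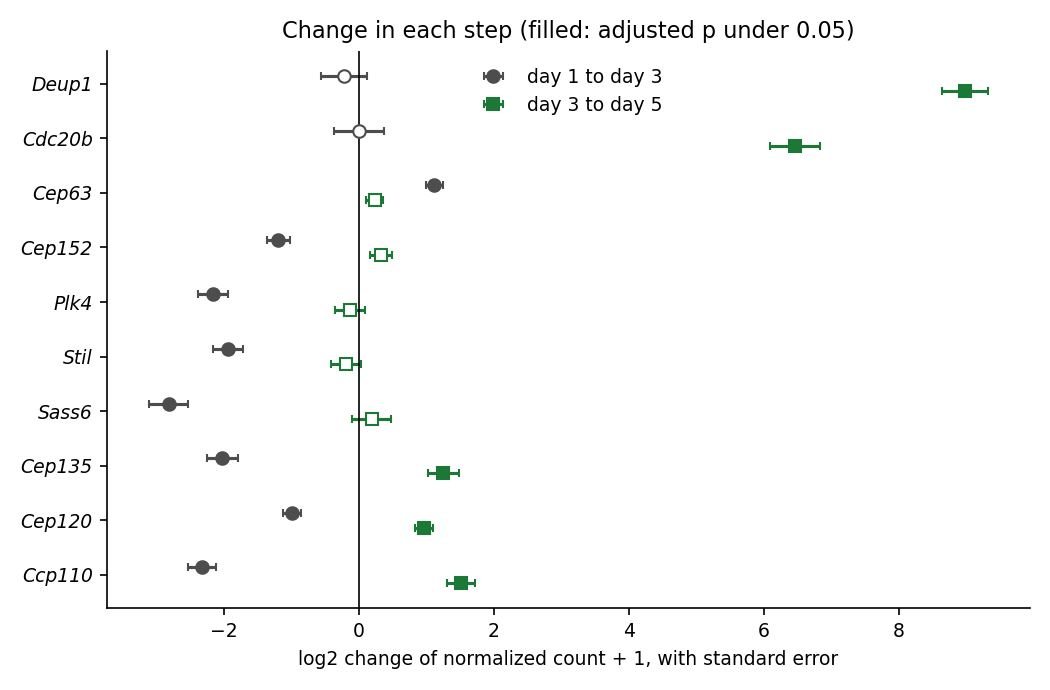
Change of each gene in each step, as the difference in log2(normalized count + 1) on the horizontal axis, with standard errors from the limma fit. Circles are day 1 to day 3, squares are day 3 to day 5, and filled symbols have an adjusted p under 0.05. Cep135, Cep120 and Ccp110 have filled symbols on both sides of 0, Plk4, Stil, Sass6 and Cep152 only on the left, and Cep63, Deup1 and Cdc20b only on the right.

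The difference between the 2 steps was itself tested, as the second step minus the first, where both steps share the day 3 libraries. All 10 genes were called, 9 of them with a higher value in the second step. Of all 17338 tested genes, 70.7% were called in this contrast, 6379 with a higher value in the second step and 5885 with a lower one. The counts for the 10 genes are read against that background. The difference was 9.21 for Deup1 and 6.47 for Cdc20b, which passed the filter only through day 5, so their calls here follow in part from it. Among the centriole genes it ran from 3.84 for Ccp110 (adjusted p = 1.45e-05) and 3.27 for Cep135 to 1.52 for Cep152 (adjusted p = 8.42e-04), and it was −0.88 for Cep63 (adjusted p = 3.79e-03). The call for Cep63 was lost when libraries were scaled by their totals (−0.28, adjusted p = 0.186), and that for Stil once the length and GC trend was taken out (0.47, adjusted p = 0.157).

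Transcript length moved with these changes. The 8 centriole genes have longest transcripts of 3479 to 6948 bases, and the 2677 tested genes within that length range and within their range of GC content (a set chosen after the values were seen) had a median change of −0.58 from day 1 to day 3, with 58.2% called down and 19.2% up. From day 3 to day 5 their median was 0.30, with 46.4% called up. Once the length and GC trend was taken out, the falls of Ccp110, Cep135 and Cep120 to day 3 were smaller but still called (−1.32, −1.30 and −0.48), as were their rises to day 5 (0.86, 0.72 and 0.52), and the rise of Cep63 was larger (2.05).

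Compared per kb of transcript, the order of the 10 genes changed with each day. The length used was that of the longest transcript, and levels compared across genes depend on that choice. It is 5861 bases for Cep63, 3479 for Plk4 and 3019 for Deup1, against 9598, 6855 and 3311 exonic bases in all. The order with other lengths was not tested. On day 1 Plk4 led with 351 ± 37.3 normalized counts per kb (SD, n = 3), above every library of Cep120 at 127 ± 5.43. Cep120, Stil and Ccp110 followed, each overlapping the next in that order, then Cep152, Sass6, Cep135 and Cep63, likewise overlapping from one to the next between 77.8 and 56.9. On day 3 Cep63 led with 124 ± 17.2, followed without overlap by Plk4 at 79.4 and Cep120 at 63.6, and Sass6 was the lowest gene with reads at 9.20.

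On day 5 Deup1 led with 169.6 ± 38.8 per kb, but its libraries overlapped those of Cep63 at 145 ± 8.08, which in turn overlapped Cep120 at 125 ± 24.3. Plk4, Ccp110, Cdc20b, Cep152, Cep135 and Stil came next, from 73.8 to 28.3, each overlapping its neighbour, and Sass6 was again lowest at 10.7. Library by library, Deup1 stood at 1.56, 0.920 and 1.07 times its paralog Cep63 per kb, and at 2.08, 2.28 and 2.67 times Plk4. Cdc20b reached 0.382, 0.302 and 0.294 times Deup1 per kb.

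Cdc20b did not approach the level of Cdc20, the cell cycle activator to which it is related. Cdc20 had means of 4297 ± 367, 3310.5 ± 149 and 1001 ± 102 normalized counts on days 1, 3 and 5, and fell by 1.73 on the log2 scale in the step in which Cdc20b appeared (adjusted p = 4.07e-07). On day 5 Cdc20b stood at 0.163, 0.0705 and 0.0792 times Cdc20 per kb.

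**Figure D3:**
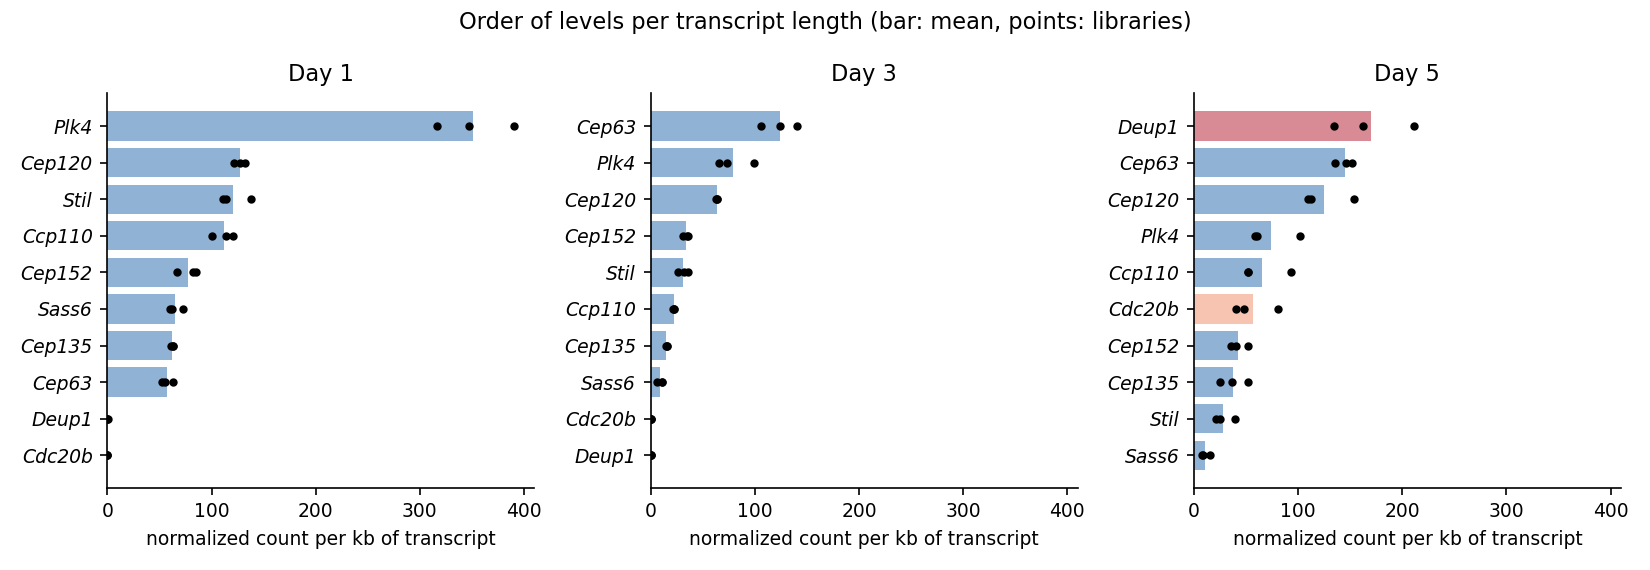
Order of the 10 genes on each day by normalized count per kb of the longest transcript (horizontal axis). Bars are means of 3 libraries, points are the libraries, red is Deup1, orange Cdc20b and blue the centriole genes. Plk4 stands apart at the top on day 1, Cep63 leads on day 3, and on day 5 the points of Deup1, Cep63 and Cep120 overlap in turn.

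The 3 libraries of day 5 differed in these genes. Replicate 1 had the highest level of 9 of the 10 (90%), all but Cep63, against 41.3% of all tested genes and 71.3% of the like-length genes, a description made after the values were seen. The median excess of replicate 1 over the mean of the other libraries was 0.77 on the log2 scale for the 10 genes, 0.26 for the like-length genes and 0.00 for all tested genes. The like-length range is that of the 8 centriole genes and was not matched on level, and Deup1 (3019 bases) and Cdc20b (1620 bases) lie outside it. The multiciliated marker sum was 10689, 9522 and 11103 in replicates 1 to 3 and the cycling cell sum was 16412, 17691 and 15905, so neither was highest in replicate 1. The secretory sum (688182, 866400 and 933258) and the basal sum (224062, 304134 and 288508) were lowest in replicate 1, at 0.765 and 0.756 times the mean of the other libraries. The part of these differences in the levels of the 10 genes was not tested. Without that library, Cep135, Cep120, Ccp110, Deup1 and Cdc20b were still called up from day 3 to day 5, and Stil was called down (−0.45, adjusted p = 0.046). The calls of Deup1 and Cdc20b again follow in part from the filter.

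**Figure D4:**
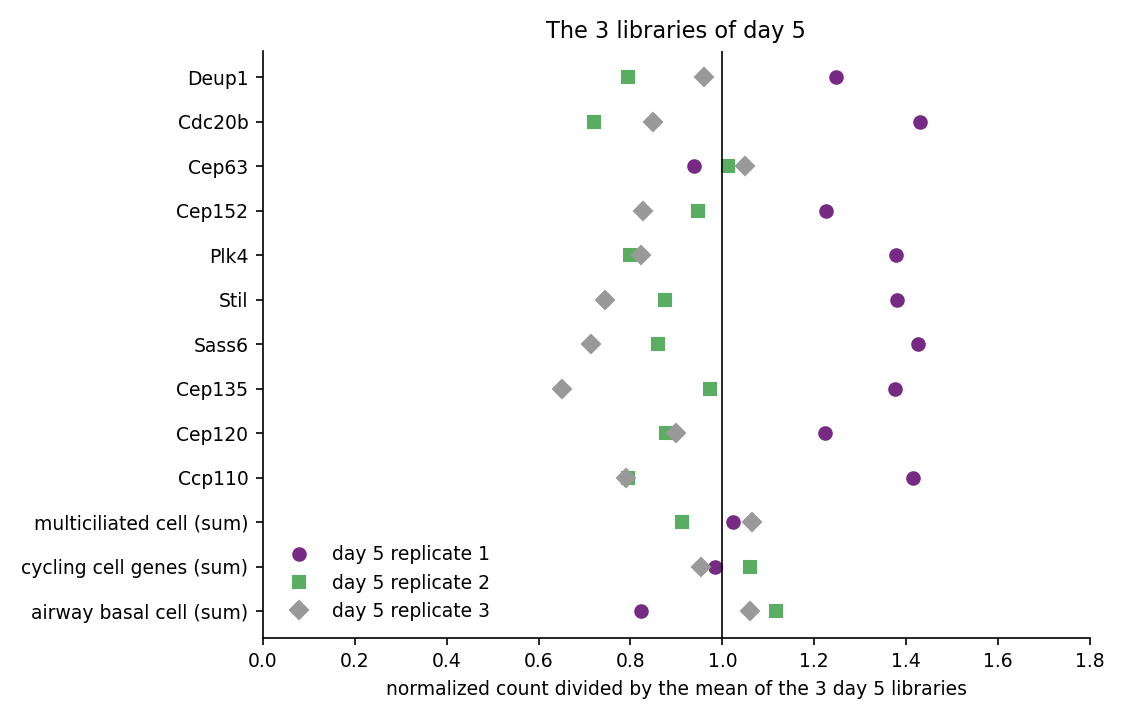
The 3 day 5 libraries for each gene and for the summed multiciliated, cycling and basal cell lists, as the normalized count divided by the mean of the 3 libraries (horizontal axis, line at 1). Replicate 1 (purple circles) lies to the right of both other replicates for every gene except Cep63, but not for the 3 sums.

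Other genes of the pathway were counted in lists that do not include the 10, to be read against the shares over all tested genes (36.1% up and 37% down in the first step, 34.8% and 32.4% in the second). The centriole assembly list (35 genes) had 9 up and 18 down from day 1 to day 3 and 12 up and 13 down from day 3 to day 5, with medians of −0.29 and −0.04, and its shares in the second step are near those of all genes. That split turned with the scaling, to 15 up and 8 down with library totals and 7 up and 20 down once the length and GC trend was taken out. By the naming rule, Cep85, a negative regulator of centrosome separation, rose most to day 3 (3.95) and fell most to day 5 (−2.16). Its means were 3138, 48302 and 11075 normalized counts on the 3 days, on day 3 above the keratin gene Krt8 (22813). Overlap with other genes was checked only for the 10 genes, and whether reads of another gene enter the Cep85 count was not tested. Sfi1, a partner of centrin, stood 2.66 above day 1 on day 5, and Ccnf, the cyclin F that limits Ccp110, was lower by 3.19 (change of −3.19). Usp33, a deubiquitinase that stabilizes Ccp110, went from 758 ± 50.5 on day 1 to 6.25, 0 and 12.8 on day 3 and to 467, 165 and 82.5 on day 5, with day 3 the lowest and a wide spread on day 5.

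The list of pericentriolar matrix and satellite proteins (25 genes) had 4 up and 15 down in the first step and 11 up and 7 down in the second, with medians of −0.83 and 0.29, but 4 up and 11 down in the second once the length and GC trend was taken out. Tubgcp4, a subunit of the microtubule-nucleating gamma-tubulin ring, had its largest fall to day 3 (−3.45), and Cep290, a satellite and ciliary gate protein, its largest rise to day 5 (1.29). Mzt2, another part of the gamma-tubulin ring, rose by 2.37 to day 3. The mitotic genes Tacc3 and Aurka fell by 2.71 and by 2.01 from day 3 to day 5, and the satellite protein Cep131 was 2.33 higher on day 5 than on day 1.

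Genes of centriole appendages and basal body docking (20 genes) had 4 up and 11 down to day 3, then 12 up and 1 down to day 5, with medians of −0.51 and 0.77. Once the length and GC trend was taken out these became 7 up and 8 down, then 10 up and 5 down, with medians of −0.18 and 0.19. Dzip1 (2.07) and the kinase Ttbk2 (2.05), which act at the basal body and the base of the cilium, had the largest rises to day 5, and Cep89 was the gene called down (−0.54; −0.20 and adjusted p = 0.134 with library totals). Cep170, a subdistal appendage protein, fell by 2.97 to day 3, while Cby1, a distal appendage partner, rose by 1.38.

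The multiciliated centriole programme (22 genes) had 8 up and 5 down to day 3 and 17 up and 2 down to day 5, with medians of 0.23 and 1.96. Beside regulators and effectors of centriole amplification, the list holds other genes of multiciliated cells, such as Foxj1, Cfap43, Spag6l, Tubb4b and Tuba1a. Its counts are therefore not counts of centriole amplification genes alone. Gmnc, Mcidas, Ccno, Foxj1, Cfap43 and Spag6l are also in the multiciliated marker list. The balance of the first step turned with library totals, to 7 up and 8 down. Gmnc, Foxn4, Ccna1 and Spag6l, among others, passed the filter only through day 5, so their calls to day 5 follow in part from it. Gmnc and Mcidas are the geminin relatives that start the programme. Gmnc had 1, 0 and 529 reads on days 1, 3 and 5, at least 174-fold more on day 5 than on day 3, and was not called in the first step (adjusted p = 0.536). Mcidas had 3, 13 and 800 reads and was called up in both steps (1.89 and 5.62). Ccno, the cyclin O needed for centriole amplification, had 9, 32 and 1641 reads and rose in both steps (2.47 and 5.57), as did Foxj1, the regulator of motile cilia genes, with means of 2.01, 41.9 and 2594. Tfdp1, the partner of E2F factors, fell by 2.01 to day 3, and the kinase Plk2 fell in both steps (−1.46 and −0.72), the second call being lost with library totals (adjusted p = 0.0814) and quantile normalization (adjusted p = 0.0775). Mcidas, Ccno and Foxj1 were called up on day 3, when Deup1 and Cdc20b were at 0. From day 1 to day 5 this list had 16 up and 5 down, against 7 and 7 of the appendage list, 3 and 18 of the pericentriolar list and 11 and 16 of the assembly list.

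Cycling cell genes (36 genes) fell in both steps: 29 were called down and 2 up to day 3, 34 down and 2 up to day 5, and all 36 down between days 1 and 5, with medians of −1.19, −1.80 and −2.92. Mki67, the common proliferation marker, fell by 1.31 and by 1.98 in the 2 steps, the first fall being −0.26 once the length and GC trend was taken out. Orc1, a subunit that marks replication origins, fell by 4.77 between days 1 and 5, and Ube2c, a ubiquitin enzyme of mitotic exit, had a change of −2.89 from day 3 to day 5. Gins2, of the replicative helicase, rose by 1.05 to day 3, and Kif20a, a kinesin of cytokinesis, fell by 4.19 to day 3 and then had a change of 1.25 to day 5 that overlapped between the days and was called in 12 of 18 alternatives (0.79 to 1.86, highest adjusted p 0.0923). With each of the 3 other scalings at least 29 of the 36 were called down in each step. The list went down in both steps, whereas Cep135, Cep120 and Ccp110 went down and then up.

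**Figure D5:**
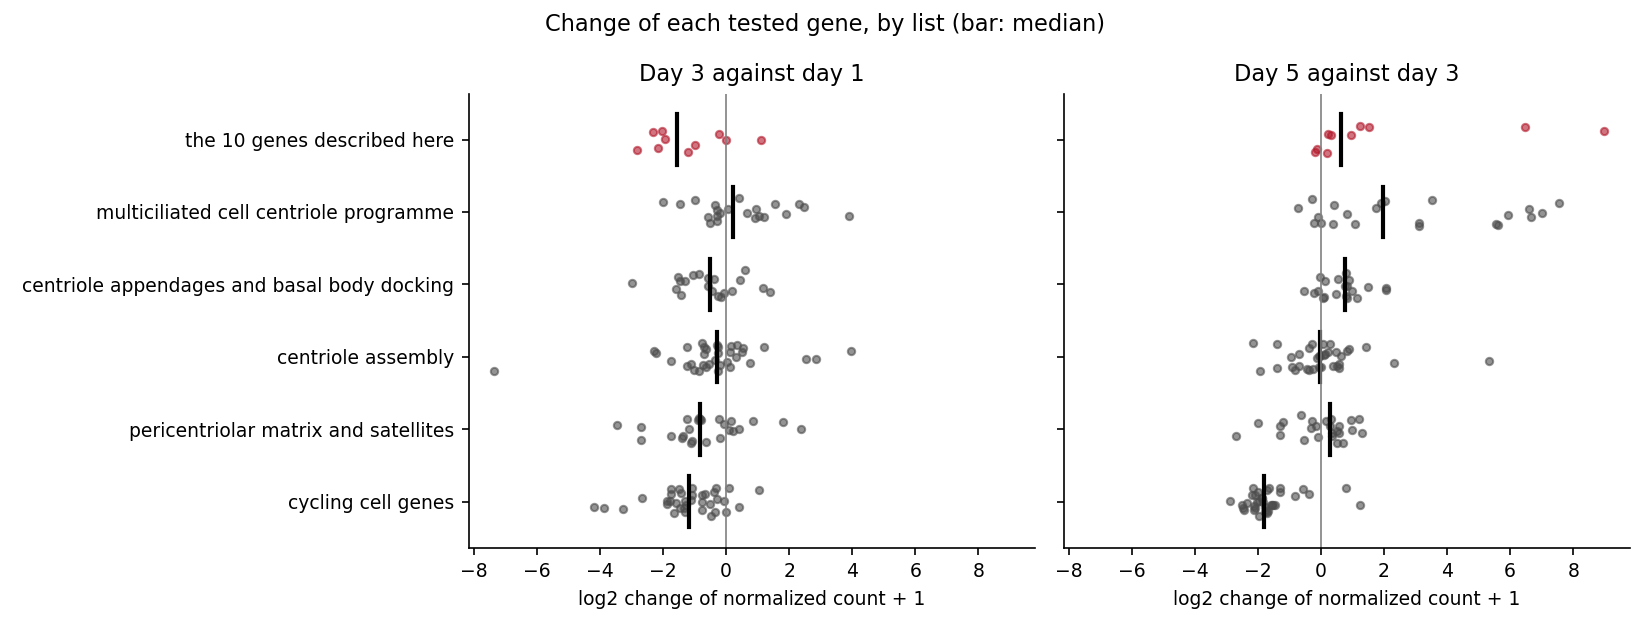
Change of each tested gene of 5 lists and of the 10 genes (red), in log2(normalized count + 1), for day 3 against day 1 on the left and day 5 against day 3 on the right; bars are medians. The median of the cycling list lies below 0 in both panels (−1.19 and −1.80), that of the multiciliated programme rises from 0.23 to 1.96, and that of the 10 genes goes from −1.57 to 0.64.

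The genes whose levels ran most alike over the 9 libraries are given by Pearson's r of log2(normalized count + 1), without a p, since the libraries share 3 days and their depths. For Plk4 they were Tnks2, Tjp1 and Chmp4c (r of 0.998 for each), of which Tjp1, the tight junction protein ZO-1, had means of 6646, 1368 and 1263. For Cep152 they were Ylpm1, Otud4 and Ncoa6 (0.996, 0.996 and 0.995). For Deup1 they were Stk33, 4933406B17Rik and Dcdc2a (0.999 for each), and for Cdc20b Spata18, Ptgdr and Ky (1.00 for each). Each of the 6 genes nearest to Deup1 and Cdc20b had a mean under 1 on days 1 and 3, so these values rest on the gap between day 5 and the earlier days.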

How the data were processed

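RNA of 9 libraries was sequenced. Per the submitters' processing notes, the tools were HISAT2 2.1.0, an aligner, and DESeq2 1.36.0, with the GRCm39 build. The read counter, the annotation and the use of strand are not given in these sources. The authors deposited the log2 of size-factor normalized counts without a pseudocount. In 297330 cells a log2 of 0 appears as a spreadsheet error and was taken as a count of 0, and 359 of 57107 lines were repeats and were dropped. All deposited values gave back whole reads (100% within 0.01 of a read), and no 2 libraries of a day agreed within sampling noise.

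The fixed design assumed plain log2 values. Because log2 of 0 is undefined, limma 3.58.1 in R 4.3.3 was fitted to log2(normalized count + 1), which understates changes of genes with few reads, for genes that reached 10 normalized counts in 3 or more of the 9 libraries, with 1 mean per day, a mean-variance trend, 6 residual degrees of freedom and two-sided tests. The script was tested on simulated data. Alternatives were a pseudocount of 8, no filter, the deposited values without genes at 0, quantile and library-total scaling, fits to 2 days, a replicate block, each library left out, removal of a length and GC trend (spline, 5 degrees of freedom) and voom on whole reads. Transcript lengths and overlaps came from GENCODE M21 on GRCm38, matched by gene identifier (98.4% of tested genes), so no other coordinates are given. Sequences are from RefSeq.

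The genes, lists and tests were chosen with earlier results of these data known. Besides the 10 genes, the text names from each list and comparison the called genes with the largest rise and fall among those averaging at least 100 normalized counts on some day, plus Mki67, Foxj1, Gmnc, Mcidas, Ccno, Cdc20 and the 3 genes most alike in pattern; the markers named singly, such as Lyz2, Cd68, Dcn and Dnah5, were chosen after their values were seen. All 206 list entries matched a gene, 1 of them by an older symbol. The depth limits genes near 0: a count of 0 over a day's libraries allows up to 3 reads. Intervals and floors cover counting error only.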

Additional observations from a re-analysis of the deposited data

How the results depend on the processing

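Over 18 alternatives, every call of the 10 genes between days kept its direction and its call (144 of 144 recomputed values for day 3 against day 1, 88 of 88 for day 5 against day 3 and 160 of 160 for day 5 against day 1), where Deup1 and Cdc20b could not be fitted with genes at 0 left out. That setting by its construction left 3 genes up from day 3 to day 5 in place of 5, and 1 up from day 1 to day 5 in place of 3. Deup1 and Cdc20b passed the filter only through day 5, so wherever the filter was used their kept calls follow in part from it. Genes called down from day 3 to day 5, 0 in all, numbered 0 to 1 with each library left out (Stil without day 5 replicate 1) and 2 once the length and GC trend was taken out (Plk4 and Stil). At an unadjusted p under 0.05 limma also gave 0. With library-total scaling, 0 of the 10 genes were called down in the second step against the first, since the call for Cep63 was lost.

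Changes that were not called turned sign as follows, and the cause was not tested. Deup1 from day 1 to day 3 was 0.23 with voom. From day 3 to day 5, without the length and GC trend, Cep152 was −0.21, Cep63 −0.39 and Sass6 −0.31, and with quantile normalization Sass6 was −0.31. With library-total scaling Plk4 was 0.20 and Stil 0.14, while Cep152 (0.65) and Cep63 (0.56) were called up. With each library left out in turn Plk4 ran from −0.38 to 0.045 and Sass6 from −0.093 to 0.40. Cep120 from day 1 to day 5 was 0.044 with quantile normalization, 0.030 with library totals, 0.045 with the trend removed and −0.19 to 0.051 with each library left out.

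Library-total scaling moved the median of all tested genes to −0.24 and 0.38 in the 2 steps, and removing the trend moved it to −0.23 in the second. The 6040 genes up and 5624 down from day 3 to day 5 became 8154 and 3884 with library totals and 4323 and 7347 with the trend removed, and in the second step against the first 6379 and 5885 became 8303 and 4136, and 4812 and 6839. Same-numbered libraries of different days had correlated deviations of −0.31 to 0.14, above 0.1 in 2 of 9 pairs. No pairing by number was seen, which does not show that libraries of the same number share no culture or animal. Libraries of unlike number and day ran from −0.15 to 0.36. The highest was day 1 replicate 1 with day 5 replicate 3, followed by day 3 replicate 3 with day 5 replicate 1 (0.34). Whether libraries of unlike number share a culture or animal was not tested. The fit with a replicate block gave 6026 up and 6180 down for day 3 against day 1 and 5655 and 5324 for day 5 against day 3, and changed no call of the 10 genes. That block groups libraries by their number only, so it cannot address links between unlike numbers.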
